A study of Homo sapiens with 6 samples.

Results

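The 42 genes described here serve the entry of proteins into the endoplasmic reticulum (ER), their folding there and the cell's response when folding fails. They were taken by symbol from a table of 26485 genes: the signal recognition particle and its receptor (6 genes), the translocon and signal peptidase (13), the oligosaccharyltransferase (4), folding chaperones (9), stress sensors and transcription factors (6) and ER-associated degradation (4). All 42 were in the table and all 42 had enough counts to be tested. The counts come from RNA sequencing of OCI-LY8, an established line derived from a human diffuse large B-cell lymphoma, in 6 libraries. The 3 controls (labelled WT) had received sgNTC, a guide RNA that targets no gene, and the other 3 libraries a guide RNA against SETD1B, a histone H3 lysine 4 methyltransferase (labelled SETD1B knockout; the knockouts). The series' design text describes the parental line as mutant for KMT2D, a related enzyme, and this background would be shared by both groups; that text names OCI-LY19, whereas every sample label names OCI-LY8. The knockout libraries carry the same guide name, and the labels do not say whether they come from separate cultures or from 1 clone. The p-values therefore measure the spread between these libraries, which may be technical.

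Secreted and membrane proteins are recognised by the signal recognition particle as their signal sequence leaves the ribosome, and are threaded through the SEC61 channel into the ER. There the signal sequence is cut off, sugar chains are attached by the oligosaccharyltransferase, and chaperones such as BiP (HSPA5) and calnexin (CANX) assist folding. Misfolded protein is returned to the cytosol and degraded, and its accumulation is sensed by IRE1 (ERN1), PERK (EIF2AK3) and ATF6, the sensors of the unfolded protein response. B cells enlarge this machinery when they become antibody-secreting plasma cells, for which IRE1 and its target XBP1 are known.

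Library totals ranged from 28726108 to 34453249 counts, and 12907 genes were tested with edgeR's quasi-likelihood test. Levels are in CPM, counts relative to the scaled library size, given as mean ± SD with n = 3 per group; differences are log2 fold changes, knockout minus control, with their standard error (SE). A gene is said to fall or rise where the edgeR p adjusted over all tested genes was under 0.05. SETD1B itself averaged 56.1 CPM among controls and 77.6 CPM among knockouts (log2 0.47, SE 0.18, edgeR adjusted p = 0.14), with knockout replicate 3 at 55.1 CPM and the other knockouts at 87.4 and 90.2 CPM. SETD1B was called higher without that replicate (log2 0.66, edgeR adjusted p = 8.1e-07), with the GC correction (log2 0.50, edgeR adjusted p = 1.3e-05) and in DESeq2 (log2 0.48, adjusted p = 0.035). Its transcript was thus not lower in the knockouts, and its level does not check the edit. Knockout replicate 3 stood apart from the other 2 knockouts on the second principal component (-30.1 against 15.0 and 20.8, 24.6% of the variance), and values without it are given where they change a call. The B-cell markers CD79A, CD79B, PAX5, MS4A1, CD22, EBF1 and BCL6 all had group means of 80.7 CPM or more. Of these, PAX5, CD22 and BCL6 rose and MS4A1 and EBF1 fell. CD79A and CD79B rose without knockout replicate 3 (log2 0.26 and 0.65, edgeR adjusted p = 3.7e-05 and 8.3e-08). They also rose with the GC correction (log2 0.14 and 0.53, edgeR adjusted p = 0.0085 and 1.9e-06). T-cell markers summed to at most 0.92 CPM and epithelial markers to at most 0.12 CPM, with CD3D, TRAT1, KRT18, KRT19 and CDH1 at 0 counts in every library. The 6 myeloid markers summed to 9.23 to 11.6 CPM in the controls and 3.61 to 5.05 CPM in the knockouts, with S100A9 at 0 throughout, and the 5 fibroblast markers to 0.31 to 0.43 and 2.63 to 3.64 CPM, with COL3A1 at 0 throughout and LUM at 0 counts in the controls and 59 to 98 in the knockouts. The part of these other markers in the results below was not tested.

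Of the 42 genes, 16 fell (38.1%), where 9.33% of all tested genes fell; 0 rose, where 5.71% of all tested genes rose; and 26 did not pass. At an unadjusted p under 0.05 edgeR gave 23 lower and 3 higher (backgrounds 17.0% and 12.7%). DESeq2 called 15 lower and 0 higher at its adjusted p (backgrounds 7.68% and 5.28%), and limma-voom 16 and 0 (9.51% and 5.55%). The falls ranged from 1.18-fold (OSTC) to 1.81-fold (ERN1), and 35 of the 42 log2 fold changes were below 0, as were 52.0% over all tested genes. The median log2 fold change was -0.22, against -0.01 over all tested genes. In 23 of the 42 genes the 3 knockout values all lay below the 3 control values, as in 21.3% of all tested genes, and in 4 they all lay above, as in 16.5%. Together the 42 genes took 1.12% to 1.14% of all counts in the control libraries and 0.968%, 0.980% and 1.05% in knockout replicates 1, 2 and 3. In such bulk samples, fewer cells of a type and less RNA per cell cannot be told apart.

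**Figure D1:**
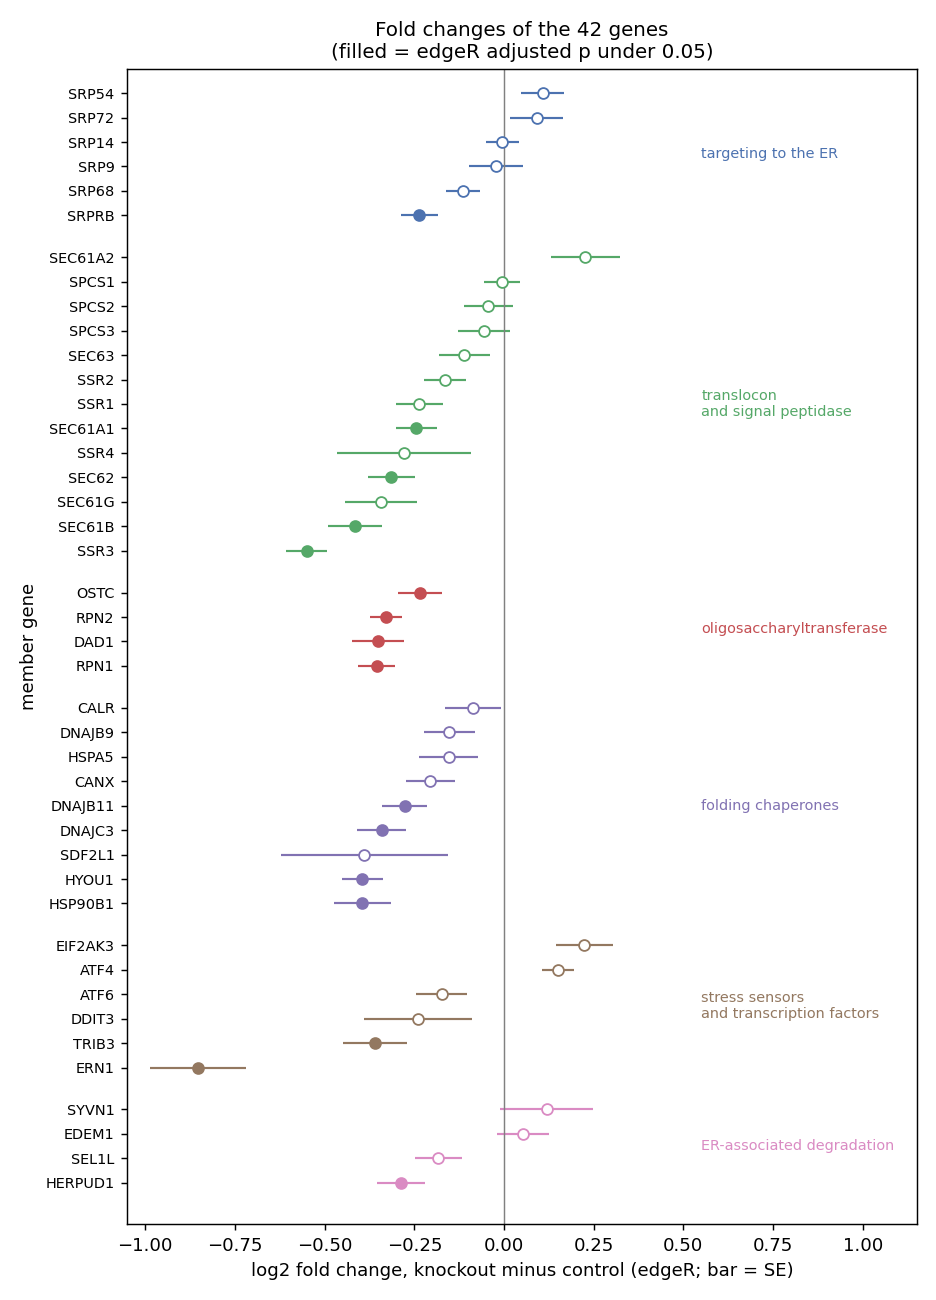
Log2 fold change of each of the 42 genes (knockout minus control, x axis) with its SE as a bar, grouped by role; filled points have an edgeR adjusted p under 0.05. All 16 filled points lie left of 0, and all 4 oligosaccharyltransferase genes among the 42 are filled.

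The number of genes that passed changed with single libraries, while all 16 that fell stayed below 0 in every alternative run. Without knockout replicate 3, 28 fell and 3 rose (backgrounds 22.8% and 21.6% of tested genes), and the 28 included all 16. Without control replicate 1, 2 or 3, the numbers that fell were 6, 5 and 6 (backgrounds 4.45%, 4.04% and 4.32%), and without knockout replicate 1 or 2 they were 6 and 9 (5.43% and 7.06%). After a correction for GC content 24 fell and 3 rose (backgrounds 19.0% and 17.3%), including 15 of the 16. SSR3, RPN1, RPN2, HYOU1 and ERN1 passed in the main test and in all 16 alternatives run.

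The sharpest loss among the 42 genes was that of ERN1, the gene of the stress sensor IRE1 (chromosome 17, 64039142 to 64130819, hg38). Its level was 21.05, 24.6 and 24.7 CPM in control replicates 1, 2 and 3 and at 14.8, 13.6 and 10.6 CPM in knockout replicates 1, 2 and 3. Every knockout was below every control, and ERN1 fell 1.81-fold (log2 -0.85, SE 0.13, edgeR adjusted p = 0.0065). The genes of the other 2 sensors did not pass. EIF2AK3, the gene of PERK, held 47.5, 46.5 and 48.1 CPM in the controls and 50.9, 53.7 and 61.4 CPM in the knockouts. All 3 knockout values of EIF2AK3 were above the controls, but the difference missed the threshold (log2 0.22, SE 0.08, edgeR adjusted p = 0.11). ATF6, whose product is cleaved to a transcription factor under ER stress, had overlapping groups at 113 ± 4.26 and 100 ± 8.25 CPM (log2 -0.17, edgeR adjusted p = 0.16). Without knockout replicate 3, EIF2AK3 rose (log2 0.14, edgeR adjusted p = 0.022) and ATF6 fell (log2 -0.24, edgeR adjusted p = 8.3e-04); ATF6 also fell with the GC correction (log2 -0.18, edgeR adjusted p = 0.0035).

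Below PERK lie ATF4, a transcription factor controlled mainly at translation, DDIT3 (CHOP), which it induces, and TRIB3, an inhibitor of ATF4 and target of CHOP. ATF4 was the most abundant of the 42 transcripts per kilobase in the controls (448 CPM per kb). It read 895, 904 and 918 CPM in the controls and 995, 1002 and 1020 CPM in the knockouts, so that the groups did not overlap. The difference of 1.11-fold did not pass (log2 0.15, SE 0.05, edgeR adjusted p = 0.066) but did so once knockout replicate 3 was left out (log2 0.14, edgeR adjusted p = 9.0e-04). DDIT3 overlapped between groups, at 20.1, 26.6 and 28.2 CPM against 23.9, 18.4 and 20.98 CPM (log2 -0.24, SE 0.15, edgeR adjusted p = 0.35); its locus overlaps MARS and MBD6. TRIB3 fell, from 86.7, 98.3 and 102.6 CPM to 77.1, 79.5 and 67.6 CPM (log2 -0.36, SE 0.09, edgeR adjusted p = 0.036). The TRIB3 call ended after the GC correction (log2 -0.29, edgeR adjusted p = 0.13) and without control replicate 2 or 3 or knockout replicate 1 (edgeR adjusted p up to 0.15).

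All 4 oligosaccharyltransferase genes among those described here fell, in a complex that transfers sugar chains to asparagines of new proteins. The complex as a whole was mixed. Of its subunits counted in another list, DDOST and MAGT1 fell, and OST4, KRTCAP2, TMEM258 and the catalytic subunits given below did not pass. All of these but DDOST were named after their values were seen. RPN1 (ribophorin I; chromosome 3, 128619970 to 128681075) read 253, 239 and 243 CPM in the controls and 183, 196 and 196 CPM in the knockouts. RPN2 (ribophorin II; chromosome 20, 37178410 to 37241623) read 513, 495 and 494 CPM and then 398, 397 and 400 CPM. Neither gene's groups overlapped, and the falls were 1.28-fold for RPN1 (log2 -0.36, SE 0.05, edgeR adjusted p = 0.0049) and 1.26-fold for RPN2 (log2 -0.33, SE 0.04, edgeR adjusted p = 0.0037). DAD1, a small subunit, fell from 66.6, 66.2 and 66.7 CPM to 49.3, 49.7 and 57.4 CPM (log2 -0.35, SE 0.07, edgeR adjusted p = 0.018). OSTC, which links the enzyme to the translocon, fell from 139, 140 and 135 CPM to 115, 111 and 126 CPM (log2 -0.23, SE 0.06, edgeR adjusted p = 0.043). In both genes knockout replicate 3 was nearest the controls, and both calls ended when any library but that one was left out (edgeR adjusted p up to 0.12 for DAD1 and 0.22 for OSTC). OSTC also missed the threshold in DESeq2 (adjusted p = 0.087) and with RLE scaling (edgeR adjusted p = 0.067). The catalytic subunits STT3A (301 to 262 CPM, log2 -0.20, edgeR adjusted p = 0.066) and STT3B (247 to 228 CPM, log2 -0.11, edgeR adjusted p = 0.35), named after their values were seen, did not pass. Both fell without knockout replicate 3 (log2 -0.25 and -0.19, edgeR adjusted p = 3.8e-05 and 8.0e-04) and with the GC correction (edgeR adjusted p = 9.1e-04 and 0.024), and the groups of STT3A did not overlap.

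In the translocon and signal peptidase group, 4 of 13 genes fell and 9 did not pass. The strongest was SSR3, a subunit of the translocon-associated protein complex (chromosome 3, 156540140 to 156555184). SSR3 read 212, 213 and 213 CPM in the controls and 142, 138 and 155 CPM in the knockouts. The control values were almost equal and every knockout lay far below them (1.46-fold, log2 -0.55, SE 0.06, edgeR adjusted p = 0.0011). Its partners SSR1, SSR2 and SSR4 had log2 fold changes of -0.24, -0.16 and -0.28 (edgeR adjusted p = 0.051, 0.11 and 0.39), and the groups overlapped only in SSR4, which read 91.4, 106 and 60.8 CPM in the knockouts against 99.6 to 110 CPM in the controls. In the fit that left out knockout replicate 3, SSR1 and SSR2 fell (log2 -0.30 and -0.13, edgeR adjusted p = 3.7e-05 and 0.017) and SSR4 did not pass (log2 -0.08, edgeR adjusted p = 0.33).

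The SEC61 channel is built of an alpha, a beta and a gamma subunit, and its beta and main alpha genes fell. SEC61B, the beta subunit, fell from 123, 118 and 113 CPM to 88.1, 96.3 and 80.8 CPM (log2 -0.42, SE 0.08, edgeR adjusted p = 0.011). SEC61A1, the pore-forming subunit, fell from 351, 338 and 345 CPM to 301, 301 and 271 CPM (log2 -0.24, SE 0.06, edgeR adjusted p = 0.030). In both, knockout replicate 3 was the lowest library and the groups did not overlap. SEC61G, the gamma subunit, read 118, 108 and 105 CPM and then 78.2, 82.6 and 100.1 CPM, and did not pass (log2 -0.34, SE 0.10, edgeR adjusted p = 0.061). Its groups did not overlap, and leaving out knockout replicate 3 brought it past the threshold (log2 -0.46, edgeR adjusted p = 2.2e-05). SEC61G also fell with the GC correction (log2 -0.37, edgeR adjusted p = 0.0012) and in DESeq2 (log2 -0.33, adjusted p = 0.048). The second alpha gene SEC61A2, at 5.50 CPM per kb against 94.8 for SEC61A1 in the controls, had a log2 fold change of 0.23 (edgeR adjusted p = 0.17). SEC62, which serves post-translational entry, fell from 204, 215 and 210 CPM to 161, 161 and 184 CPM (log2 -0.31, SE 0.07, edgeR adjusted p = 0.021), while its partner SEC63 did not pass (log2 -0.11, edgeR adjusted p = 0.36). The signal peptidase subunits SPCS1, SPCS2 and SPCS3 had log2 fold changes of -0.0064, -0.044 and -0.056 with overlapping groups (edgeR adjusted p from 0.68 to 0.95). Its subunits SEC11A and SEC11C, counted in another list, fell (log2 -0.26 and -0.53, edgeR adjusted p = 0.038 and 0.0029). SEC11A was named after its value was seen. SEC63, SPCS2 and SPCS3 fell without knockout replicate 3 (log2 -0.19, -0.11 and -0.13, edgeR adjusted p = 4.0e-04, 0.044 and 0.016). The SEC62 call ended when any library but knockout replicate 3 was left out (edgeR adjusted p up to 0.13), that of SEC61A1 without any 1 control or knockout replicate 1 (up to 0.13), and that of SEC61B without control replicate 1 or 2 (up to 0.066).

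The signal recognition particle itself was close to level between the groups. SRP9 and SRP14, which pause translation, had log2 fold changes of -0.023 and -0.0048, and SRP54, which binds the signal sequence, 0.11 (edgeR adjusted p = 0.89, 0.96 and 0.28). SRP68 and SRP72 gave -0.11 and 0.091 (edgeR adjusted p = 0.16 and 0.48). Only the receptor subunit SRPRB passed among the 6 targeting genes, falling from 88.1, 90.1 and 90.1 CPM to 73.3, 76.3 and 78.3 CPM (log2 -0.24, SE 0.05, edgeR adjusted p = 0.024). Its groups did not overlap, but the call ended when any library but knockout replicate 3 was left out (edgeR adjusted p up to 0.17) and in DESeq2 (adjusted p = 0.052). Without knockout replicate 3, SRP9 and SRP68 also fell (log2 -0.11 and -0.13, edgeR adjusted p = 0.0058 and 0.0046). The other receptor subunit SRPR, counted in another list, fell from 232 to 203 CPM (log2 -0.19, edgeR adjusted p = 0.028). SRPR was named after its value was seen.

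Among the 9 folding chaperones 4 fell and 5 did not pass, and all 9 log2 fold changes were below 0. HSP90B1 (GRP94, the HSP90 of the ER; chromosome 12, 103930107 to 103953645) read 1124, 1071 and 1063 CPM in the controls and 767, 785 and 926 CPM in the knockouts. Its fall was 1.31-fold (log2 -0.39, SE 0.08, edgeR adjusted p = 0.017), with knockout replicate 3 nearest the controls. HYOU1 (GRP170, which releases nucleotide from BiP; chromosome 11, 119044189 to 119057202) read 592, 543 and 545 CPM and then 417, 445 and 417 CPM (log2 -0.39, SE 0.06, edgeR adjusted p = 0.0048). The BiP co-chaperones DNAJC3 (120 ± 3.29 to 94.5 ± 7.35 CPM, log2 -0.34, edgeR adjusted p = 0.017) and DNAJB11 (110 ± 4.72 to 90.7 ± 4.72 CPM, log2 -0.28, edgeR adjusted p = 0.026) fell as well. In HYOU1 the knockouts lay within a narrow band, whereas in DNAJC3 and DNAJB11 knockout replicate 3 was again the highest of them.

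BiP, the central chaperone, did not pass. HSPA5 read 700, 622 and 623 CPM in the controls and 524, 594 and 629 CPM in the knockouts (log2 -0.15, SE 0.08, edgeR adjusted p = 0.27), with knockout replicate 3 inside the control range. Its call also failed without that library (log2 -0.21, edgeR adjusted p = 0.058). The lectin chaperones calreticulin (CALR, 729 ± 53.7 and 686 ± 52.4 CPM, log2 -0.09) and calnexin (CANX, 1047 ± 23.5 and 908 ± 74.3 CPM, log2 -0.21) did not pass either (edgeR adjusted p = 0.53 and 0.087). CANX had groups that did not overlap and fell without knockout replicate 3 (log2 -0.28, edgeR adjusted p = 1.1e-05). The co-chaperones DNAJB9 and SDF2L1 had log2 fold changes of -0.15 and -0.39 (edgeR adjusted p = 0.20 and 0.33). DNAJB9 fell without knockout replicate 3 (log2 -0.19, edgeR adjusted p = 0.024), and SDF2L1 spread widely in the knockouts, at 14.5, 20.2 and 10.2 CPM. The calls of HSP90B1 and DNAJB11 ended when any library but knockout replicate 3 was left out, and that of DNAJC3 without any 1 control or knockout replicate 1 (edgeR adjusted p up to 0.095, 0.15 and 0.11).

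Of the 4 degradation genes, HERPUD1 fell and 3 did not pass. HERPUD1, a membrane protein of the degradation complex and a target of the unfolded protein response, fell from 186, 188 and 192 CPM to 147, 147 and 169 CPM (log2 -0.29, SE 0.07, edgeR adjusted p = 0.030). This call too ended when any library but knockout replicate 3 was left out (edgeR adjusted p up to 0.17). SYVN1, the ubiquitin ligase HRD1, read 337, 330 and 338 CPM in the controls and 407, 397 and 286 CPM in the knockouts. Knockout replicates 1 and 2 were above the controls and replicate 3 below them (log2 0.12, SE 0.13, edgeR adjusted p = 0.62), and SYVN1 rose without replicate 3 (log2 0.26, edgeR adjusted p = 1.5e-05). Its partner SEL1L (log2 -0.18, edgeR adjusted p = 0.11) and the mannosidase-like EDEM1 (log2 0.053, edgeR adjusted p = 0.70) did not pass; SEL1L fell without replicate 3 (log2 -0.25, edgeR adjusted p = 1.4e-04).

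**Figure D2:**
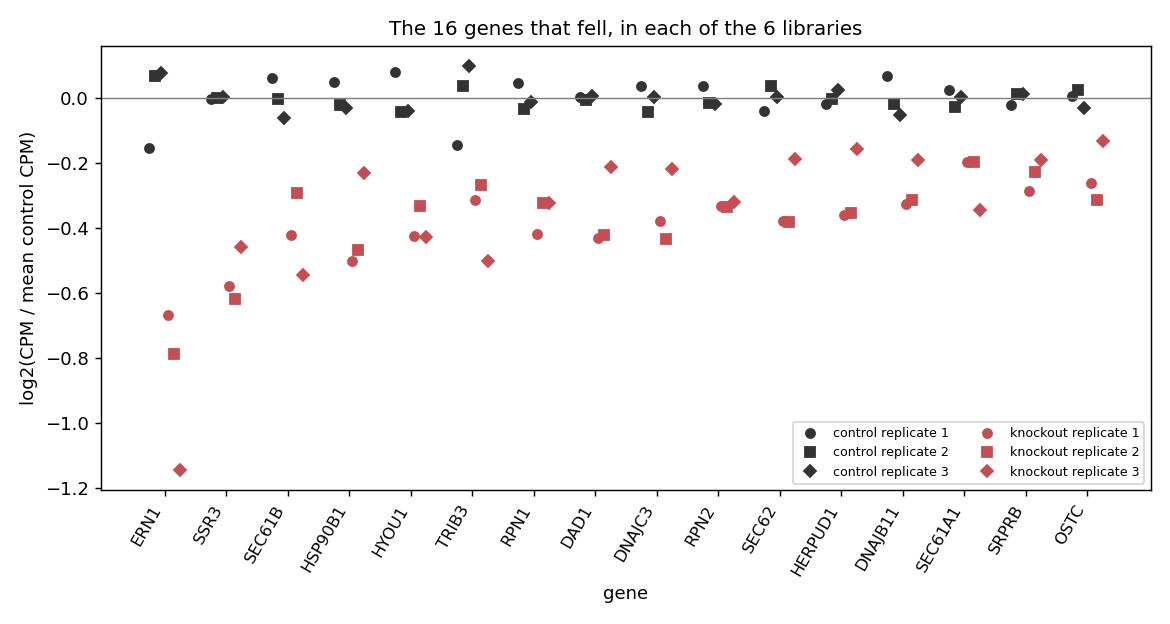
CPM of the 16 genes that fell, as log2 of each library's value over the mean of the 3 controls (y axis), ordered by fold change (x axis); black marks are controls and red marks knockouts, with a shape for each replicate. Every red mark lies below every black mark of its gene, and knockout replicate 3 is the highest knockout in 11 of the 16 genes.

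Promoters were searched for exact forms of some binding elements of the unfolded protein response, since 16 of these genes fell together. The stretches that matched are shown. Variant forms and other elements of the response were not searched. The windows ran from 250 bases before to 50 after each RefSeq gene start (GRCh38.p14), both strands were read, and 40 of the 42 genes matched. The ER stress element, bound by ATF6 with NF-Y, was searched as CCAAT, any 9 bases and CCACG, and was found in 4 of the 40 genes (HSPA5, HSP90B1, CALR and CANX) and in 0.0916% of all 27305 genes. The core of the unfolded protein response element, bound by XBP1 and ATF6, was searched as TGACGTGG and was found in 4 others (SSR3, SEC62, HYOU1 and SSR4) and in 0.927% of all genes. The cAMP response element TGACGTCA was found in 0 of the 40 genes and in 2.25% of all genes. The matched stretches are shown 5′ to 3′ on the strand of the gene, with the matched letters in capitals; where these read CGTGG and ATTGG, or CCACGTCA, the element lies on the opposite strand. They lie at chr9:125241361-125241439 (HSPA5), chr12:103930186-103930264 and chr12:103930291-103930369 (HSP90B1), chr19:12938359-12938432 (CALR), chr5:179698748-179698826 (CANX), chr3:156554129-156554196 (SSR3), chr3:169966760-169966827 (SEC62), chr11:119057356-119057423 (HYOU1) and chrX:153794509-153794576 (SSR4). HSPA5, SSR3 and HYOU1 are on the minus strand and the others on the plus strand.
HSPA5: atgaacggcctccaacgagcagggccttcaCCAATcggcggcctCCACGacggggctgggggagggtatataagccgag
HSP90B1, first match: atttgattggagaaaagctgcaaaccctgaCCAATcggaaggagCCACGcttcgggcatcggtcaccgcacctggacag
HSP90B1, second match: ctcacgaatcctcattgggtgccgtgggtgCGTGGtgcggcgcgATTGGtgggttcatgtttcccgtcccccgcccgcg
CALR: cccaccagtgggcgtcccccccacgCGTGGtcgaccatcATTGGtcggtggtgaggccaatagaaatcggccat
CANX: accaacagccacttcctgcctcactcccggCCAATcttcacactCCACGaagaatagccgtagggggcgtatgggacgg
SSR3: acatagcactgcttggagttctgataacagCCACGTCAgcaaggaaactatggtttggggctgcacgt
SEC62: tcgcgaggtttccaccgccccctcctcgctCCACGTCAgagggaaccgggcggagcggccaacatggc
HYOU1: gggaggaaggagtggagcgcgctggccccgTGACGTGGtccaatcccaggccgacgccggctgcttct
SSR4: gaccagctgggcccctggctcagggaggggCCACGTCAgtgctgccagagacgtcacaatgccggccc

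Among the 4 genes with an ER stress element, HSP90B1 fell and HSPA5, CALR and CANX did not pass, with log2 fold changes of -0.39, -0.15, -0.09 and -0.21. Among the 4 with the unfolded protein response core, SSR3 (log2 -0.55), SEC62 (-0.31) and HYOU1 (-0.39) fell and SSR4 (-0.28) did not pass. The other 12 genes that fell, ERN1 among them, include RPN1, which had no window in the table, and 11 with none of the 3 exact forms in their windows. Those 11 may hold forms or elements that were not searched. These matches are descriptions of letters in a window and show no binding. The genes described here were chosen by role, with genes of the unfolded protein response among them, so the shares test no enrichment.

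The genes that fell were spread over 10 chromosomes. Chromosome 3 held 8 of the 42 genes, and 6 of these fell (SEC61A1, RPN1, SRPRB, SSR3, SEC62 and DNAJB11), while SPCS1 and EDEM1 did not pass. The 725 other tested genes of chromosome 3 had a median log2 fold change of -0.01, with 11.2% lower. Within 5 Mb of each of these 6 genes, the median log2 fold change of the neighbouring tested genes lay between -0.05 and 0.08. Over all 16 genes that fell, these medians ranged from -0.15 (TRIB3) to 0.08 (SEC62). Of the 16, SRPRB, SEC61A1, RPN2, HSP90B1 and DNAJB11 overlap other annotated genes, and no source used here gives the strand setting of the counting, so reads from such partners cannot be told apart.

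Knockout replicate 3 deviated from the other 2 knockouts with the GC content of the transcript. In all 18 member genes under 42% GC it was above both other knockouts (median log2 difference 0.19), and in the 12 genes with 50% GC or more it was above both in 5 and below both in 7 (median -0.10). Over all tested genes the same difference went from 0.19 at 35 to 40% GC to -0.67 at 60 to 75% GC. The most GC-rich members, SDF2L1 (65.5%), TRIB3 (60.9%), SSR4 (60.8%), ATF4 (56.7%) and SYVN1 (56.3%) lay at log2 differences of -0.74, -0.21, -0.69, 0.03 and -0.49. With the GC correction SYVN1 (log2 0.15, edgeR adjusted p = 0.036), EIF2AK3 (log2 0.23, 0.0049) and SEC61A2 (log2 0.24, 0.038) rose, SSR4 (log2 -0.25, 0.0024) and SDF2L1 (log2 -0.35, 0.017) fell, and ATF4 did not pass (log2 0.21, 0.12), all by edgeR. SSR1, SEC63, CANX, SEL1L and DNAJB9 fell with it too (log2 -0.25, -0.13, -0.21, -0.20 and -0.16). Their edgeR adjusted p were 6.1e-04, 0.0091, 0.0020, 6.8e-04 and 0.032. The median over the 42 genes stayed at -0.21 with the correction and at -0.22 without knockout replicate 3, against 0.0039 and 0.0034 over all tested genes.

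**Figure D3:**
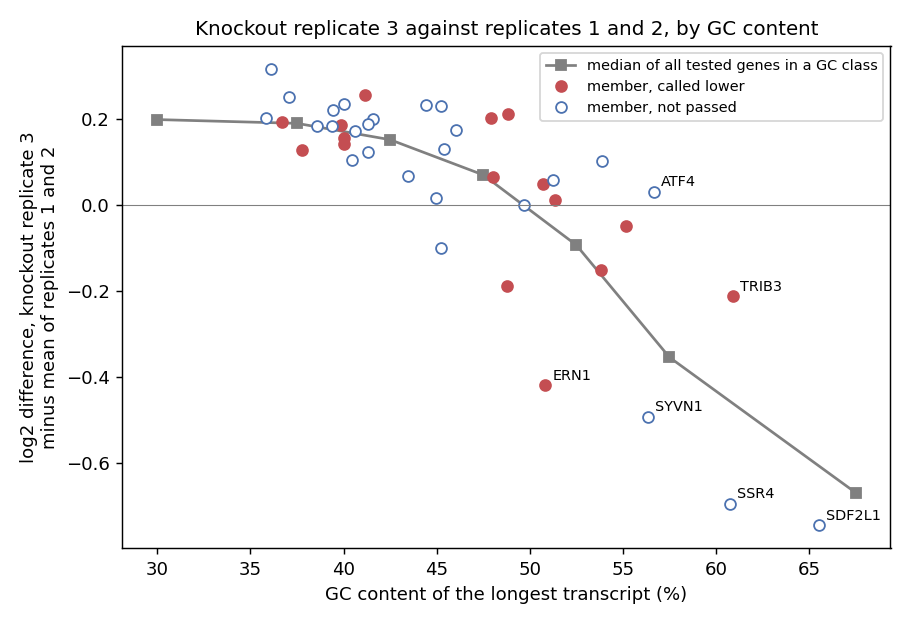
Log2 difference of knockout replicate 3 from the mean of knockout replicates 1 and 2 (y axis) against the GC content of the longest transcript (x axis); circles are the 42 genes, filled red where they fell and open blue where they did not pass, and grey squares are medians of all tested genes in GC classes. Members under 42% GC lie above 0 and SSR4 and SDF2L1 lie near -0.7.

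Other genes of the secretory pathway were counted in lists that hold none of the 42, to be read against 9.33% lower and 5.71% higher over all tested genes (22.8% and 21.6% without knockout replicate 3). COPII and ER exit genes gave 13 lower (44.8%) and 0 higher of 29 tested (median log2 -0.23), and without that replicate 19 lower and 1 higher. The cargo receptor LMAN1 fell from 155 ± 1.62 to 93.6 ± 8.16 CPM (log2 -0.73, edgeR adjusted p = 8.1e-04), the coat gene SEC24D 1.37-fold and the cargo receptor SURF4 1.32-fold. Protein disulphide isomerases and oxidases gave 7 lower (36.8%) and 1 higher of 19 (median -0.30; 15 and 2 without the replicate), with PDIA2 (log2 -5.95), PDIA4 (-0.56) and TMX4 (-0.51) falling most; ERO1B, an oxidase, rose (0.40). Other folding genes gave 6 lower (33.3%) and 1 higher of 18 (median -0.17; 9 and 2 without it), led by the prolyl isomerase FKBP11 (89.4 ± 4.81 to 54.5 ± 0.760 CPM, log2 -0.72, edgeR adjusted p = 4.8e-04), the BiP exchange factor SIL1 (log2 -0.58) and the prolyl isomerase PPIB (log2 -0.53); FKBP14 rose (log2 0.29). ERO1B, FKBP14 and MAGT1 were named after their values were seen.

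Other targeting and translocation genes gave 6 lower and 0 higher of 24 (median -0.14; 11 and 3 of 25 without knockout replicate 3), with the tail-anchored insertion factor WRB (log2 -0.54), the signal peptidase subunit SEC11C (-0.53) and TRAM2 (-0.42) falling most. Other N-glycosylation genes gave 4 lower (12.9%, near the share over all genes) and 0 higher of 31 (median -0.10; 13 and 3 without the replicate), with ALG2 (-0.45), the oligosaccharyltransferase subunit DDOST (-0.41) and ALG5 (-0.37) falling most; the other was MAGT1 (-0.34). Other degradation genes gave 3 lower (11.5%, also near it) and 0 higher of 26 (median -0.11; 13 and 2 without the replicate). They were the ubiquitin-conjugating enzymes UBE2G2 (-0.59) and UBE2J1 (-0.48), and the signal peptide peptidase HM13 (-0.23). Of the genes named from these lists, the calls of SIL1, HM13 and ALG5 ended in 4 of the 6 fits that left out 1 library (edgeR adjusted p up to 0.14, 0.16 and 0.11), those of ALG2 and DDOST in 3 (up to 0.068 and 0.084) and that of SURF4 in 2 (up to 0.072), none of these in the fit without knockout replicate 3. MAGT1, ERO1B, FKBP14, SEC11A and SRPR were not followed through these fits. WRB and UBE2G2 lie on chromosome 21, where 57.7% of 123 tested genes fell (median -0.42), and SEC11C and LMAN1 on chromosome 18 beyond 55 Mb, where 42.9% of 42 tested genes fell (median -0.24). The part of these regional values in the falls of these 4 genes was not tested.

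Other unfolded protein response regulators gave 1 lower and 1 higher of 17 (5.88% each, median log2 0.03): CREB3L2, a transcription factor of secretory cells, fell (log2 -0.41, edgeR adjusted p = 0.0017) and CREBZF rose (log2 0.48, edgeR adjusted p = 7.6e-04). XBP1, named after its value was seen, read 416 ± 16.6 and 428 ± 29.6 CPM (log2 0.04, edgeR adjusted p = 0.76); gene counts do not separate its spliced from its unspliced form. Of 29 tested ATF4 targets 1 fell (3.45%) and 0 rose (median -0.04), the one being CTH, an enzyme of cysteine synthesis (log2 -0.58, edgeR adjusted p = 0.016), whose call ended in 3 of the 6 fits without 1 library (up to 0.085). Without knockout replicate 3 these 2 lists gave 7 lower and 4 higher regulators and 8 lower and 9 higher targets. The difference between these lists and the others was not tested. Of the 7 plasma cell markers 3 fell (JCHAIN, PRDM1 and TNFRSF17), 0 rose, and XBP1, MZB1, IRF4 and SDC1 did not pass. Without knockout replicate 3 IRF4 rose (log2 0.21, edgeR adjusted p = 2.7e-04). With the GC correction IRF4 rose (log2 0.20, edgeR adjusted p = 0.0073) and MZB1 fell (log2 -0.21, edgeR adjusted p = 0.020). The list summed to 1941 to 2009 CPM in the controls and 1314 to 1473 CPM in the knockouts, and without the joining chain JCHAIN, which fell from 610 to 6.94 CPM, to 1347 to 1389 and 1308 to 1465 CPM, which overlap. Most of the sum without JCHAIN comes from XBP1, IRF4 and MZB1, so it does not show the falls of PRDM1 and TNFRSF17. PRDM1 went from 8.98 to 3.03 CPM (log2 -1.57, edgeR adjusted p = 3.0e-04) and TNFRSF17 from 13.7 to 5.97 CPM (log2 -1.19, edgeR adjusted p = 6.1e-04). The part of the plasma cell markers in the falls of the ER genes was not tested.

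**Figure D4:**
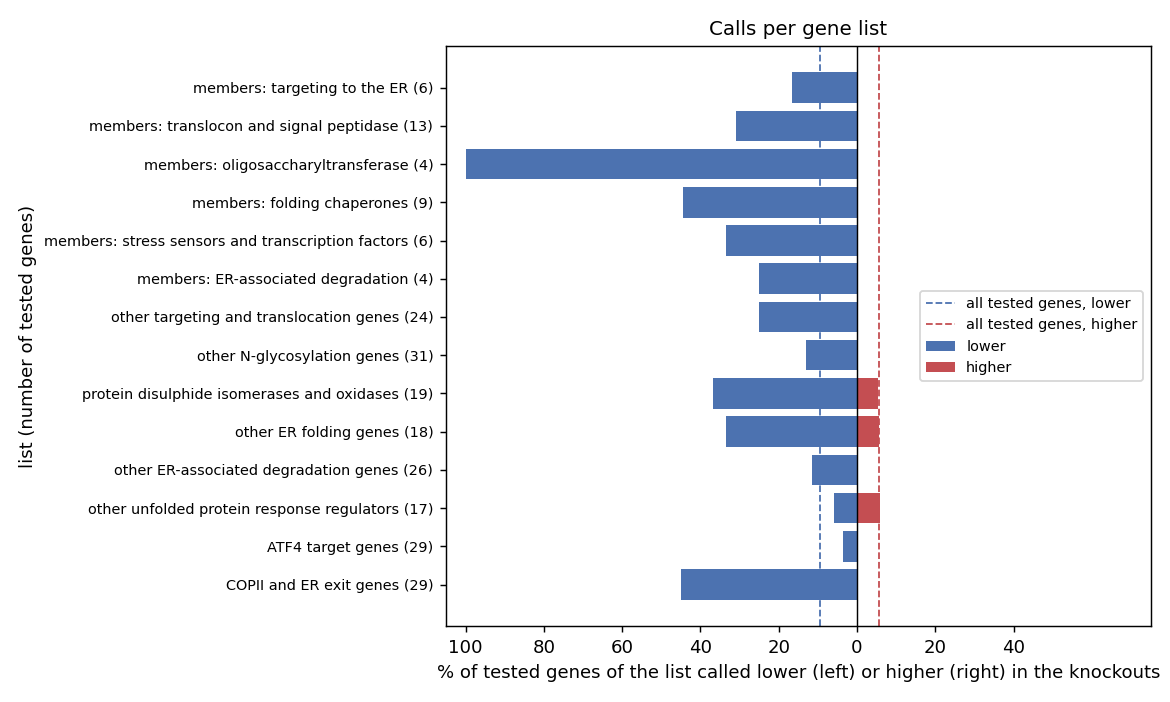
Share of each list's tested genes that fell (blue, to the left) or rose (red, to the right) in the knockouts, in percent, with the number tested in parentheses; dashed lines mark all tested genes (9.33% lower, 5.71% higher). The bars of the oligosaccharyltransferase, ER exit and chaperone lists reach 100%, 44.8% and 44.4% lower, and that of the ATF4 targets 3.45%. The oligosaccharyltransferase bar covers 4 genes, and other subunits of that complex are in the N-glycosylation list.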

How the data were processed

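Read counts per gene were analysed for 6 libraries, 3 sgNTC controls and 3 SETD1B knockouts, grouped and numbered by sample title. Per the labels' protocols, RNA came from RNeasy columns and the library kit was TruSeq Stranded mRNA. The submitters' processing notes name hg38, HISAT2, featureCounts, Trimmomatic, CASAVA 1.8 and DESeq2, with no order; the gene annotation, strand setting and handling of multi-mapped reads were not given in the sources used here. For gene levels, the authors deposited raw whole-number counts; their second table, of log2 values, was not used, and 0 per-sample columns of the count table were left out. No 2 replicates agreed within sampling noise (chi-square per degree of freedom 1.80 or more).

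The test was edgeR 4.0.16 (R 4.3.3): genes kept by filterByExpr, scaling by TMM, a robust quasi-likelihood fit on group, and Benjamini-Hochberg adjustment over 12907 genes at 0.05. SE is the absolute log2 fold change over the square root of F. A count of 0 allows up to 3 counts, or 0.0870 to 0.104 CPM, for counting error only. Alternatives were other scalings and filters, DESeq2 1.42.0, limma-voom (limma 3.58.1), a replicate block, a GC correction (a smooth trend per library as an offset), leaving out each library, and an adjusted p under 0.01. Positions, GC content and transcript lengths were read from GENCODE 29, also hg38 (of the symbols, 23899 matched as they stand, 715 by another symbol and 1871 not); 96.7% of tested genes had a GC value. On simulated data for this comparison (12813 genes), the fit recovered 10.0% of changes of log2 0.3, 50.0% of 0.5, 84.0% of 1 and 100% of 2, with 6.87% of calls false. The simulated data held fewer changed genes than were called here and lacked the GC-related deviation of knockout replicate 3. These rates need not hold for the real libraries.

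The members and lists were chosen with earlier results of these data known. Named by rule were every member that passed and, per other list, up to 3 changed genes of at least 1 CPM with the largest fold change.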

Additional observations from a re-analysis of the deposited data

How the results depend on the processing

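The direction of the 16 falls held in all 16 alternatives run, and 30 of the 42 genes were below 0 in all of them. The 16 lower members became 5 at an adjusted p under 0.01, where all genes gave 276 higher and 552 lower in place of 737 and 1204. With the GC correction 3 members rose in place of 0, and all genes gave 2239 higher and 2452 lower. With the GC correction and the replicate block 1 member rose, and all genes gave 1905 higher and 2174 lower. Leaving out 1 library gave 5 to 28 lower and 0 to 3 higher members, and 252 to 2817 higher and 527 to 2978 lower genes in all; the largest numbers came without knockout replicate 3. The replicate numbers did not pair the libraries (correlations of deviations -0.0088, -0.10 and 0.081); with the replicate block 11 members fell and 0 rose (SRPRB, SEC61A1, OSTC, DNAJB11 and TRIB3 had edgeR adjusted p from 0.062 to 0.11), and all genes gave 450 higher and 876 lower. DESeq2 called 15 lower and 0 higher members, limma-voom 16 lower and 0 higher, and an unadjusted p under 0.05 gave 23 lower and 3 higher with edgeR. Signs changed only in genes near 0. These were SRP9 (0.032 and 0.028 without knockout replicates 1 and 2), SRP14 (0.010 with RLE scaling and with DESeq2, 0.0015 with the GC correction, 0.0013 with the replicate block added, 0.027 and 0.0054 without knockout replicates 1 and 2), SPCS1 (0.0084 with RLE, 0.0022 with the GC correction, 0.0019 with the block added, 0.022 without knockout replicate 1, 0.0086 with DESeq2), SPCS2 and SPCS3 (0.016 and 0.013 without knockout replicate 1) and EDEM1 (-0.028 without knockout replicate 3). Over the fits without 1 library, the values ranged from -0.11 to 0.032 for SRP9, -0.028 to 0.027 for SRP14, -0.013 to 0.022 for SPCS1, -0.11 to 0.016 for SPCS2, -0.13 to 0.013 for SPCS3 and -0.028 to 0.12 for EDEM1. The cause of these shifts was not tested. Changes of the size seen here lie where the simulated recovery was incomplete, so a member that did not pass may still differ.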
